A study of Mus musculus with 12 samples.

Results

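The levels of 44 collagen genes were described in RNA of 12 mouse rhabdoid tumors. The genes were chosen by symbol alone: the letters Col, a number, the letter a and a second number, with nothing added. They were 44 of the 24060 rows of the expression tables. The genotype of the mice was P0-CreC;Smarcb1flox/flox. Their Cre recombinase, under the promoter of the myelin protein zero gene, removes Smarcb1, a subunit of the SWI/SNF chromatin remodelling complex, from neural crest cells and the Schwann cell lineage. Every tumor shared this genotype, and no normal tissue was analysed here. The labels placed 4 tumors at the retro-orbital site, 3 in the cheek, 3 in the meninges, 1 on the vestibular nerve and 1 on the trigeminal nerve. They gave no age or sex. A tumor of this model also holds cells that kept Smarcb1, such as vessels and inflammatory cells, so a lower value may stand for fewer cells of a type or for less RNA per cell, which bulk RNA cannot separate.

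Collagens are triple helices of 3 chains, and the chains of a helix may come from the same gene or from different genes. Fibrillar collagens such as types I, III and V pack into the fibrils that carry load in connective tissue, type IV forms the sheet of every basement membrane, type VI forms beaded filaments around cells, and the FACIT collagens sit on the surface of fibrils. In peripheral nerve, Schwann cells and fibroblasts make the collagens of the basal lamina and of the endoneurial matrix.

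The unit was RPKM, a read number divided by transcript length and by the mapped reads of the library, so levels of different genes could be compared per length. The scaling totals recovered from the values ranged from 13206168 (cheek tumor 3) to 57128422 fragments (retro-orbital tumor 3). Under them 30.1% (retro-orbital tumor 3) to 39.8% (meninges tumor 3) of the genes used for the recovery were whole fragments. The read numbers per sample in the paper span a narrower relative range, so these totals are inferred and are not the stated depth. Smarcb1 was at 1.70 to 6.31 RPKM in the 12 tumors. Some tumors shared the first part of their identifier: cheek 2 with cheek 3, cheek 1 with meninges 1, and retro-orbital 3 with the trigeminal tumor. Whether these came from 1 animal was not stated, and p-values then measure only the spread between these samples. Cheek tumors 2 and 3 were the most alike of all 66 pairs (SD of the difference in log2(RPKM + 1) over 14745 genes 0.345, against 0.689 for the next pair). Their fragment numbers over 42 collagen genes differed by more than counting error (chi-square of 513 per gene), so the pair is not 1 library deposited again. That does not show that they are independent tumors. They entered as 2 by their labels, and results with 1 tumor per first part are given beside the tests.

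The 44 genes fell into 11 fibrillar, 6 type IV, 6 type VI, 9 FACIT, 3 short-chain network, 2 multiplexin and 4 transmembrane collagens, the anchoring fibril gene Col7a1, and 2 others (Col26a1 and Col28a1). Of these, 18 reached 1 RPKM in all 12 tumors and 2 (Col6a4 and Col22a1) in none. Fibrillar genes led: Col3a1 had the highest mean, 884 ± 617 RPKM (SD, n = 12), followed by Col1a2 at 709 ± 416 and Col5a2 at 490 ± 255. These 3 genes were among the top 5 collagens in each of the 12 tumors. Col3a1 ranked first in 7 tumors, Col1a2 in 3, Col5a2 in 1 and Col6a1 in 1, the last being retro-orbital tumor 2. The mean of the fibrillar genes still spanned 0.294 RPKM (Col24a1) to 884 RPKM.

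**Figure D1:**
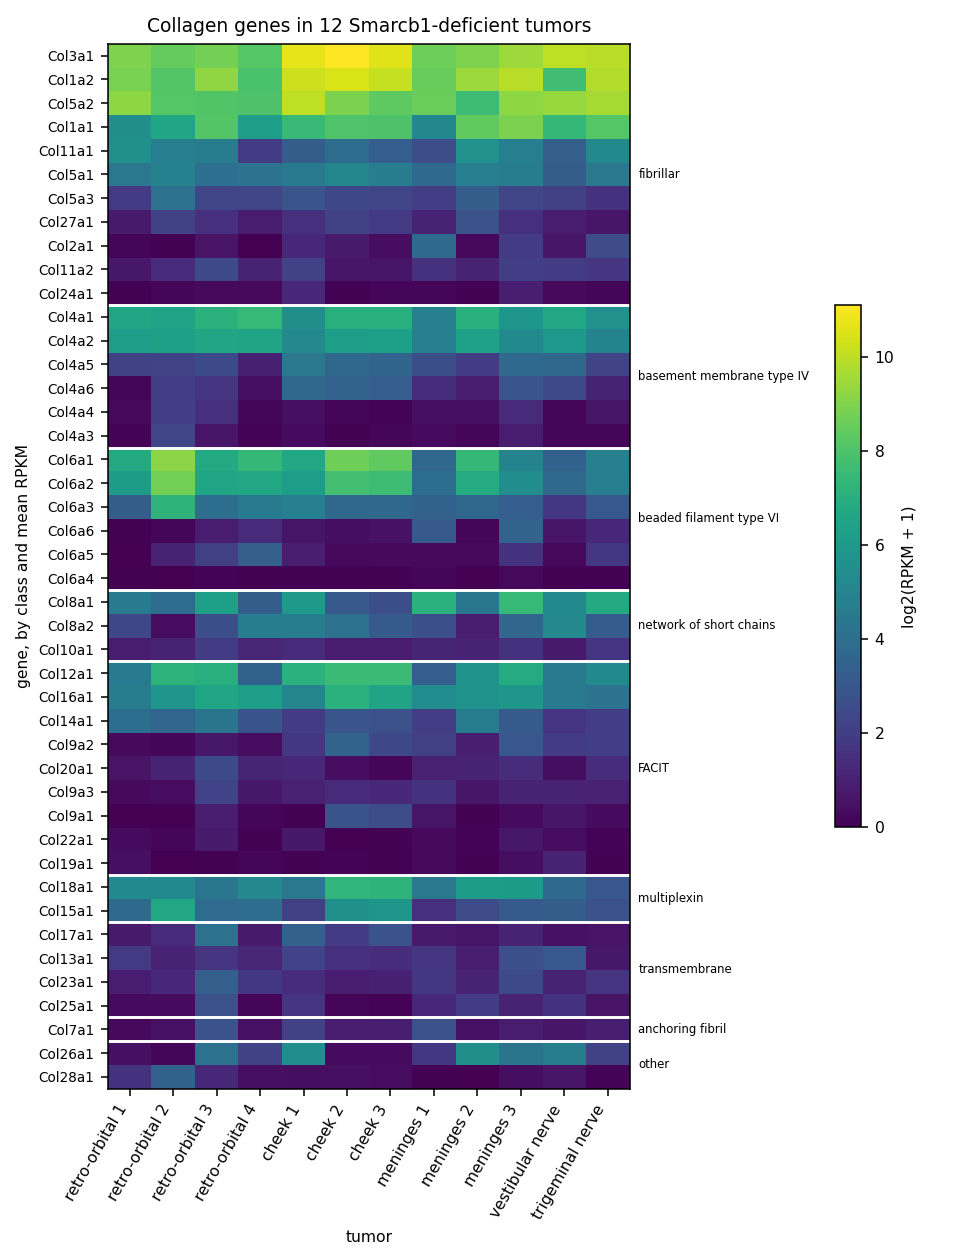
Level of each of the 44 collagen genes (rows, grouped by class and ordered by mean RPKM) in each of the 12 tumors (columns), as log2(RPKM + 1) in color. Col3a1, Col1a2 and Col5a2 were bright in every tumor, and the type VI genes Col6a1, Col6a2 and Col6a3 were brightest in retro-orbital tumor 2.

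Collagen genes took between 0.374% (meninges 1) and 1.41% (cheek 2) of all RPKM of a tumor. The 3 cheek tumors were at 1.13%, 1.41% and 1.05%, above the other 9, whose highest was meninges tumor 3 at 0.882%. The summed fibrillar level was 1324 ± 397 RPKM in retro-orbital (SD, n = 4), 3954 ± 615 in cheek (n = 3) and 1954 ± 813 in meninges tumors (n = 3), and 2127 and 3026 in the vestibular and trigeminal tumors. The lowest cheek tumor (3261 RPKM) lay above the highest of the others (3026 RPKM). The summed type IV level was 213 ± 45.1 in retro-orbital, 186 ± 62.9 in cheek and 132 ± 77.6 in meninges tumors, and these ranges overlapped. Fibrillar genes exceeded type IV genes in all 12 tumors, by 3.37-fold in retro-orbital tumor 4 and by up to 36.7-fold in cheek tumor 1. In retro-orbital tumor 2 the fibrillar share of collagen RPKM was 38.8% and that of type VI 41.2%. In the other 11 tumors the fibrillar share lay between 54.2% and 89.5%, and the type VI share between 1.06% and 18.3%.

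**Figure D2:**
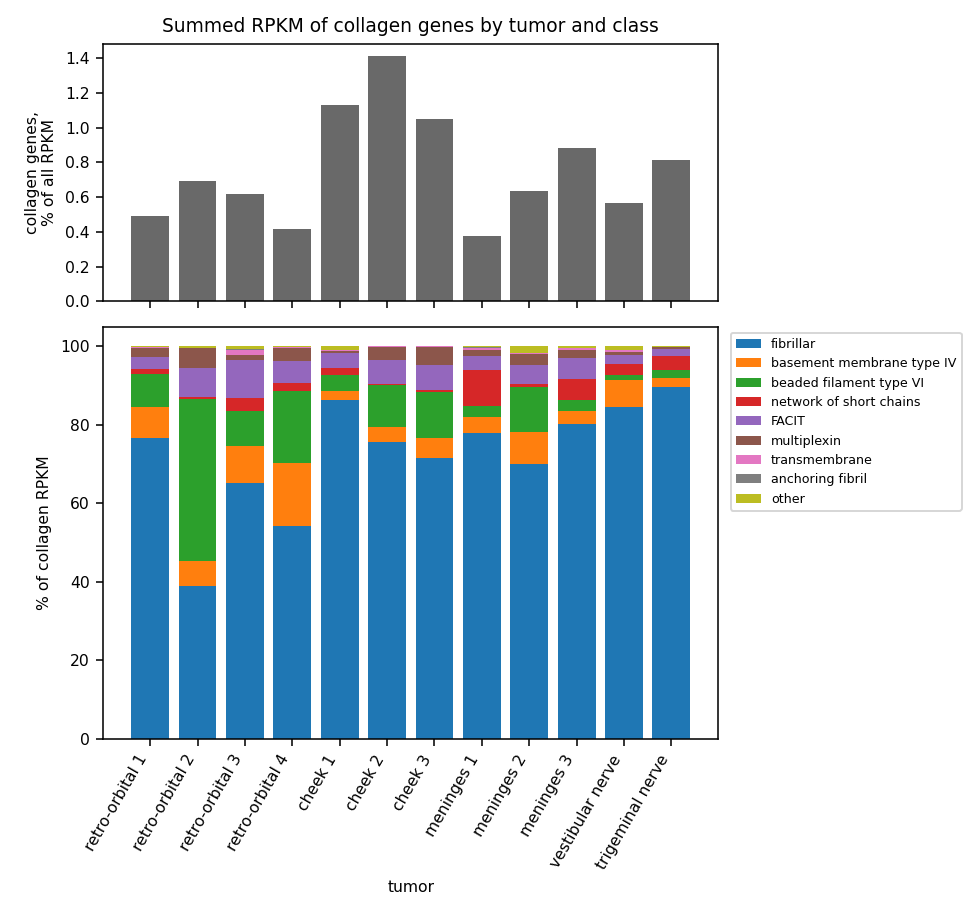
Top, share of a tumor's summed RPKM that fell on the 44 collagen genes (%). Bottom, that collagen RPKM divided among the 9 classes (%), with 1 bar per tumor. The 3 cheek bars (1.05% to 1.41%) stand above all others, and retro-orbital tumor 2 differs by its type VI share of 41.2%.

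Several members lie side by side in the genome, and the sequences before the starts of the genes that the results below turn on are given here from RefSeq (GRCm38.p6). Col3a1 (chr1:45311538-45349706) and Col5a2 (chr1:45374321-45503282) lie tail to tail, 24614 bases apart. Col4a1 (chr8:11198423-11312826) and Col4a2 (chr8:11312805-11449287) lie head to head on opposite strands and share their first 22 bases. Col4a5 (chrX:141475385-141689234) and Col4a6 (chrX:141165403-141474076) lie head to head with 1308 bases between them, and Col4a3 and Col4a4 with 71 bases. Col6a2 (chr10:76595762-76623630) and Col6a1 (chr10:76708792-76726168) follow each other on the minus strand, 85161 bases apart. Each sequence reads 5′ to 3′ on the strand of its gene, outside annotated exons except for the shared Col4a1 and Col4a2 stretch, and capitals mark the letters TATAAA, or GGGCGG read on either strand.
Col3a1, chr1:45311288-45311537, plus strand: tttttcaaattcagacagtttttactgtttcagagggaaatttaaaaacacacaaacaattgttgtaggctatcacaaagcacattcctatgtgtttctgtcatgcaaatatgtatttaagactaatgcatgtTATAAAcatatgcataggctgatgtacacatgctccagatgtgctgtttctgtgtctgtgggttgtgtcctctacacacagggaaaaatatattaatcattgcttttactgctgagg
Col1a2, chr6:4505370-4505492, plus strand: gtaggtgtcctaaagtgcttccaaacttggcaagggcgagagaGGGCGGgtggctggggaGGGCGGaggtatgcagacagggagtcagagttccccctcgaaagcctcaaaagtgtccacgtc
Col6a1, chr10:76726169-76726294, minus strand: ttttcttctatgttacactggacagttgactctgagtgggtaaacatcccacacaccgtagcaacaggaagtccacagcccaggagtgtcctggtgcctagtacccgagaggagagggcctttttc
Col6a2, chr10:76623631-76623880, minus strand: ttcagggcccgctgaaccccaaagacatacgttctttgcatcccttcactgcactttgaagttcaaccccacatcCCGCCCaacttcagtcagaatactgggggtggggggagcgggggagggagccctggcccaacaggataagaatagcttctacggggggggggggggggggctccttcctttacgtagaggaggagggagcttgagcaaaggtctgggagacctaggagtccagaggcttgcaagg
Col4a1 and Col4a2, shared stretch, chr8:11312805-11312826, plus strand: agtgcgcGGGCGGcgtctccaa

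In the Col3a1 sequence the TATAAA run began at position -117 from the gene start, and in that of Col1a2 2 GGGCGG runs began at -205 and -188, without overlap. The window of Col1a2 also held CCAAT at -109, outside the printed stretch. The printed Col1a2 and Col6a1 stretches hold 123 and 126 of the 250 bases of their windows. The Col6a1 window held none of these letters and the printed Col6a2 window 1 GC box on the minus side at -175. RefSeq has another start of Col6a2, whose window held 3 such runs, at -67, -15 and -11. RefSeq windows of 250 bases were at hand for 35 of the 44 genes (38 windows). On either strand, GGGCGG was found in 57.9% of them against 32.7% of all 32851 windows, CCAAT in 34.2% against 33.8%, and TATAAA in 13.2% against 12.4%. These are matches of letters, not measured binding.

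Among the fibrillar genes, Col3a1, the chain of type III collagen of skin, vessels and reticular tissue, was at 500, 356, 435 and 291 RPKM in retro-orbital tumors 1 to 4. It was at 1648, 2207 and 1530 RPKM in cheek tumors 1 to 3, and at 397, 496 and 706 RPKM in meninges tumors 1 to 3. The vestibular tumor had 1061 RPKM and the trigeminal tumor 985 RPKM. The cheek tumors thus lay above all other tumors, the retro-orbital and meninges ranges overlapped, and every value rested on at least 58252 fragments. Col1a2, the second chain of type I collagen, was at 465, 278, 613 and 241 RPKM in the retro-orbital, 1237, 1424 and 1105 RPKM in the cheek, and 367, 696 and 973 RPKM in the meninges tumors. It was at 205 RPKM in the vestibular tumor, the lowest of all, and at 902 RPKM in the trigeminal tumor. Again the 3 cheek tumors were the highest, here with meninges tumor 3 next. Summed fibroblast markers were at 235, 488 and 458 RPKM in cheek, 157 to 484 in retro-orbital and 388 to 527 in meninges tumors. Pdgfra made up 401 and 392 RPKM of that sum in cheek tumors 2 and 3. Summed skeletal muscle markers were at 31.4, 533 and 272 RPKM in cheek, 8.86 to 200 in retro-orbital and 5.01 to 283 in meninges tumors. Schwann cell markers summed to 4.31 to 68.3 RPKM over the 12 tumors. The part of such cells was not tested. Col5a2, a chain of the fibril-nucleating type V collagen, was highest in cheek tumor 1 (1050 RPKM) and lowest in meninges tumor 2 (196 RPKM), and its cheek range reached down to 331 RPKM, within the ranges of the other sites. Col1a1 ranged from 35.3 RPKM (meninges 1) to 490 RPKM (meninges 3), so the meninges tumors spanned its whole range.

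The cartilage collagen gene Col2a1 was below 5 RPKM in 11 tumors and at 13.3 RPKM in meninges tumor 1, where the summed level of 8 chondrocyte markers was also highest (592 RPKM, against 3.50 to 489 RPKM in the others). Of those markers the defining gene Acan was at 1.4 RPKM there and Matn3 made up 541 RPKM, and the part of such cells in the result was not tested. Col11a1, a partner of types II and V in fibrils, was between 2.96 and 48.6 RPKM, Col5a1 between 8.66 and 33.6 RPKM and Col5a3 between 2.03 and 17.1 RPKM. Col11a2, Col24a1 and Col27a1 stayed under 6 RPKM in all 12 tumors.

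In the type IV class, Col4a1 and Col4a2, which code for the ubiquitous basement membrane chains, had means of 96.1 ± 45.0 and 62.7 ± 23.4 RPKM (SD, n = 12). Col4a1 was at 92.9, 87.3, 138 and 173 RPKM in the retro-orbital, 43.5, 128 and 127 RPKM in the cheek, and 28.0, 131 and 56.7 RPKM in the meninges tumors, with 100 RPKM in the vestibular and 47.8 RPKM in the trigeminal tumor. Col4a2 was at 72.9, 79.4, 91.0 and 89.1 RPKM in the retro-orbital, 36.9, 71.7 and 75.5 RPKM in the cheek, and 27.1, 80.5 and 38.1 RPKM in the meninges tumors, with 59.5 and 30.7 RPKM in the vestibular and trigeminal tumors. For both genes meninges tumor 1 was the lowest, and the sites overlapped. The endothelial markers, whose cells lay down basement membrane, summed to 24.5 to 110 RPKM over the 12 tumors.

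Col4a5 and Col4a6, chains of specialised basement membranes, had another pattern. Col4a5 was at 3.48, 3.83, 4.71 and 0.983 RPKM in the retro-orbital, 20.2, 12.1 and 11.0 RPKM in the cheek, and 5.37, 2.77 and 12.9 RPKM in the meninges tumors, with 12.6 and 3.82 RPKM in the vestibular and trigeminal tumors. Col4a6 was at 0.139, 3.20, 2.25 and 0.372 RPKM in the retro-orbital, 12.1, 10.1 and 9.00 RPKM in the cheek, and 1.77, 0.852 and 6.64 RPKM in the meninges tumors, with 4.57 and 1.18 RPKM in the vestibular and trigeminal tumors. Col4a6 was higher in each cheek tumor than in any other tumor, while for Col4a5 meninges tumor 3 and the vestibular tumor fell within the cheek range. Col4a3 and Col4a4, the other specialised pair, stayed under 5 RPKM, with their highest values in retro-orbital tumor 2 (4.05 and 3.17 RPKM).

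Type VI genes differed widely between tumors. Col6a1 was at 110, 577, 109 and 169 RPKM in the retro-orbital, 98.4, 397 and 333 RPKM in the cheek, and 12.4, 169 and 30.3 RPKM in the meninges tumors, with 9.94 RPKM in the vestibular and 27.5 RPKM in the trigeminal tumor, a 58.0-fold range. Col6a2 was at 66.5, 430, 94.7 and 97.6 RPKM in the retro-orbital, 72.3, 217 and 195 RPKM in the cheek, and 15.2, 114 and 43.0 RPKM in the meninges tumors, with 13.4 and 25.6 RPKM in the vestibular and trigeminal tumors. Retro-orbital tumor 2 was highest for both, cheek tumors 2 and 3 followed, and no site stood apart from the rest. Col6a3, the longest of the 3 chains, was at 150 RPKM in retro-orbital tumor 2 and at 2.52 to 26.6 RPKM in the other 11 tumors. In that tumor Crabp2, 1 of 5 meninges markers, was at 676 RPKM and brought their sum to 679 RPKM (7.44 to 174 RPKM in the others). The other 4 markers stayed under 2 RPKM. Leukocyte markers summed to 459 RPKM there (90.7 to 377 RPKM in the others). Of these, Cd68 (244 RPKM) and Csf1r (146 RPKM) were highest in that tumor. Ptprc (33.3 RPKM), Adgre1 (36.0 RPKM) and Cd3e (0.261 RPKM) were higher in some other tumors. The part of such cells was not tested. Col6a5 and Col6a6 stayed under 11 RPKM and Col6a4 under 0.2 RPKM.

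The short-chain network gene Col8a1, known from vessel walls and from the corneal endothelium, was highest in meninges tumors 3 and 1 (174 and 134 RPKM) and in the trigeminal tumor (110 RPKM). It was at 22.3, 14.05, 76.3 and 8.59 RPKM in the retro-orbital tumors, at 61.4, 7.50 and 5.29 RPKM in the cheek tumors, at 19.5 RPKM in meninges tumor 2 and at 37.3 RPKM in the vestibular tumor. The high and the low tumors were thus spread over the sites. Col8a2 was at 4.19, 0.283, 5.27 and 25.5 RPKM in the retro-orbital, 25.4, 16.9 and 7.90 RPKM in the cheek, and 5.52, 0.878 and 11.6 RPKM in the meninges tumors, with 36.6 and 8.54 RPKM in the vestibular and trigeminal tumors. Col10a1, the collagen of hypertrophic cartilage, stayed under 3 RPKM, and its exons overlap those of Nt5dc1 on the other strand.

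Of the 9 FACIT genes, Col12a1 and Col16a1 had the highest means (87.0 ± 68.8 and 57.3 ± 34.8 RPKM, SD, n = 12). Col12a1 was at 23.8, 144, 123 and 9.89 RPKM in the retro-orbital, 135, 187 and 190 RPKM in the cheek, and 9.00, 49.5 and 113 RPKM in the meninges tumors, with 23.1 and 37.5 RPKM in the vestibular and trigeminal tumors. Col16a1 was at 25.4, 53.8, 92.9 and 72.2 RPKM in the retro-orbital, 32.3, 136 and 87.9 RPKM in the cheek, and 39.6, 50.1 and 57.1 RPKM in the meninges tumors, with 22.9 and 17.9 RPKM in the vestibular and trigeminal tumors. Both genes overlapped between sites. Col9a2, a chain of the cartilage type IX collagen, was at 0.202, 0.0991, 0.637 and 0.283 RPKM in the retro-orbital, 2.47, 10.7 and 4.25 RPKM in the cheek, and 3.32, 0.914 and 7.14 RPKM in the meninges tumors, with 2.78 and 3.13 RPKM in the vestibular and trigeminal tumors. All 4 retro-orbital tumors were below all other tumors. Col9a1 was at 6.39 and 5.12 RPKM in cheek tumors 2 and 3 and under 1 RPKM in the other 10, and in those 2 tumors the chondrocyte markers were at their lowest (3.50 and 3.62 RPKM summed). Col14a1 ranged from 2.27 to 24.3 RPKM. Col9a3, Col19a1, Col20a1 and Col22a1 stayed under 5 RPKM.

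The multiplexin genes Col18a1 and Col15a1, whose products carry the endostatin and restin fragments in vessel and other basement membranes, both exceeded 40 RPKM in cheek tumors 2 and 3. Col18a1 was at 159 and 150 RPKM there and at 7.10 to 70.0 RPKM in the other 10 tumors, cheek tumor 1 included (19.9 RPKM). Col15a1 was at 46.4 and 57.6 RPKM there, at 101 RPKM in retro-orbital tumor 2 and at 1.95 to 14.9 RPKM in the other 9. The cheek tumors were therefore not alike for these genes.

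Among the transmembrane collagens, Col17a1, the hemidesmosome collagen of squamous epithelium, was at 17.1 RPKM in retro-orbital tumor 3, at 9.73, 2.89 and 6.26 RPKM in the cheek tumors and under 2 RPKM in the other 8. The 6 epithelial markers summed to 752 RPKM in retro-orbital tumor 3 and to 359, 468 and 747 RPKM in the cheek tumors, against 5.76 to 649 RPKM in the other 8. Krt18 made up 408 and 385 RPKM of the sum in cheek tumors 2 and 3. Epcam made up 551 RPKM of the 649 RPKM in the vestibular tumor. Krt5 was highest in meninges tumor 1 (173 RPKM), where Col17a1 was at 0.689 RPKM. It was at 87.0 RPKM in retro-orbital tumor 3 and at 44.8, 15.1 and 78.0 RPKM in the cheek tumors. Krt14 was at 60.1 RPKM in retro-orbital tumor 3, at 53.8, 32.5 and 270 RPKM in the cheek tumors and at 163 RPKM in meninges tumor 1. In the remaining tumors Krt14 was at most 1.27 RPKM. The part of epithelial cells was not tested. Col13a1 was between 0.651 and 7.31 RPKM, highest in the vestibular tumor. Col23a1 (0.782 to 9.20 RPKM) and Col25a1 (0.0810 to 5.76 RPKM) were both highest in retro-orbital tumor 3. The anchoring fibril gene Col7a1, expressed under squamous epithelium, was at 6.15 RPKM in retro-orbital tumor 3, 5.82 RPKM in meninges tumor 1 and 3.61 RPKM in cheek tumor 1, and under 1 RPKM in the other 9. Col26a1 had the largest spread of all members (SD of log2(RPKM + 1) 2.08, n = 12). It was at 0.382, 0.138, 16.7 and 3.60 RPKM in the retro-orbital, 42.1, 0.249 and 0.252 RPKM in the cheek, and 2.50, 43.5 and 18.4 RPKM in the meninges tumors, with 25.1 and 3.37 RPKM in the vestibular and trigeminal tumors. High and low tumors occurred at each of the 3 replicated sites. Col28a1, known from peripheral nerve, was at 2.10, 9.79, 1.37 and 0.373 RPKM in the retro-orbital tumors and at most 0.533 RPKM in all others.

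The comparison by location asked whether these levels differed between the 3 sites with replicates. limma was fitted to log2(RPKM + 1) in the 10 retro-orbital, cheek and meninges tumors, for the 14745 genes that reached 1 RPKM in 3 or more of them, and p was adjusted by Benjamini-Hochberg over all these genes. Of the collagen genes 38 entered, and 6 did not (Col4a3, Col6a4, Col9a1, Col19a1, Col22a1 and Col24a1). A gene that entered only through the site where it was high had to differ, so the counts below describe these 38 genes and give no weight to the class. Col28a1 was such a gene, as it reached 1 RPKM only in retro-orbital tumors 1, 2 and 3 of the 10 (2.10, 9.79 and 1.37 RPKM). In the F test over the 3 sites 0 of the 38 passed an adjusted p of 0.05, where 0.0407% of all genes did. At an unadjusted 0.05 they were 5 (13.2%), against 14.3% of all genes. The smallest adjusted p was that of Col3a1, 0.061, followed by Col9a2 (0.213), Col1a2 (0.214), Col4a6 (0.222), Col4a5 (0.258) and Col28a1 (0.349). Col3a1 passed without retro-orbital tumor 1, retro-orbital tumor 3 or cheek tumor 1 (adjusted p 0.0444, 0.0414 and 0.0348 in limma). The last of these fits leaves only cheek tumors 2 and 3 for the site, which share the first part of their identifier. With the first part of the identifier as a block, 12 of the 38 genes passed the F test and so did 2802 of all 14745 genes, from a correlation within a first part estimated on 2 pairs of tumors.

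**Figure D3:**
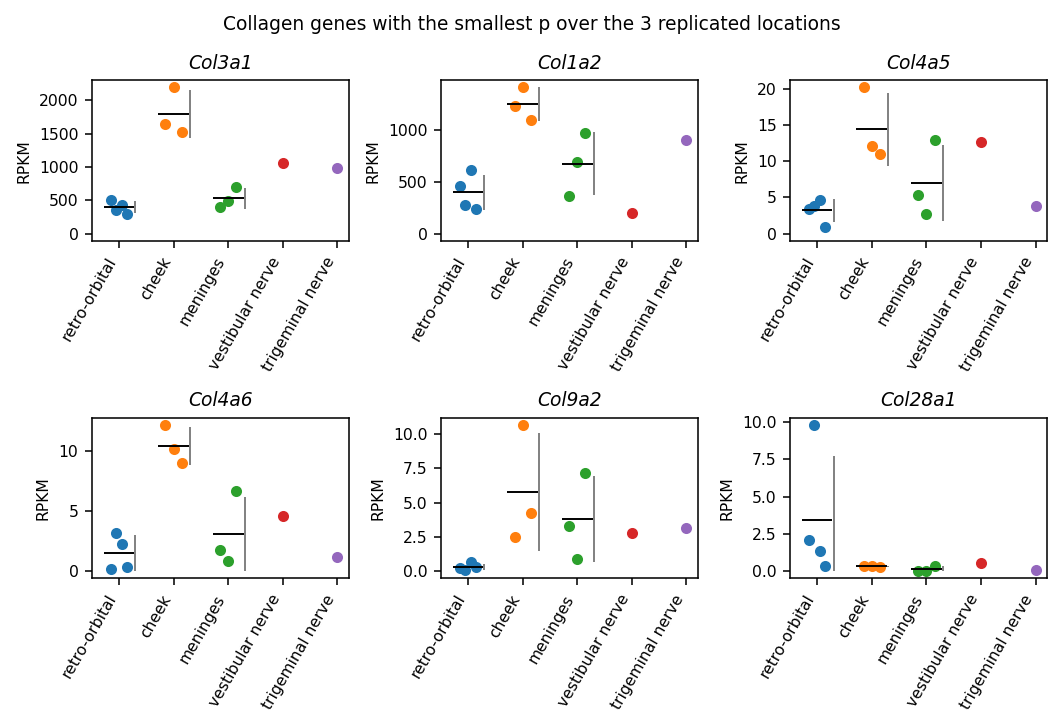
RPKM of the 6 collagen genes with the smallest F p, 1 point per tumor at each of the 5 sites. Of these, Col28a1 entered the test through the retro-orbital tumors alone. The black line is the mean of a site with replicates and the grey line beside it mean ± 1 SD, cut at the axis. Col3a1 in the cheek (1530 to 2207 RPKM) lay above every other tumor.

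Between cheek and retro-orbital tumors 1 collagen gene passed, where 0.0271% of all genes did. Col3a1 was 4.56-fold higher in the cheek, a difference of 2.19 ± 0.27 (SE) on the log2(RPKM + 1) scale, with an adjusted p of 0.044 in limma, from means of 1795 ± 361 RPKM (SD, n = 3) and 396 ± 90.9 RPKM (SD, n = 4). All 3 cheek tumors were above all 4 retro-orbital tumors. The call did not hold when the first part of the identifier was a block (difference 2.38, adjusted p = 0.299 in limma). It was also lost with 1 tumor per first part, an alternative added after the data were seen (2.30, adjusted p = 0.320), and without any 1 of cheek 2, cheek 3, retro-orbital 2, retro-orbital 3, retro-orbital 4 and meninges 2 (adjusted p from 0.0666 to 0.405), while the difference stayed between 2.03 and 2.31 with any 1 tumor left out. Unadjusted p was under 0.05 for 5 of the 38 genes (13.2%, against 12% of all genes): Col3a1, Col1a2 (1.75 ± 0.40), Col4a5 (1.91 ± 0.50), Col4a6 (2.40 ± 0.58) and Col9a2 (2.21 ± 0.53), all higher in the cheek and with adjusted p of 0.208 to 0.243 for the last 4.

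Between meninges and retro-orbital tumors 0 collagen genes passed, where 0.0203% of all genes did. Unadjusted p was under 0.05 for 6 of the 38 (15.8%, against 9.14% of all genes), with the smallest adjusted p 0.489. The differences of these were 1.79 for Col2a1, 1.67 for Col6a6 and 1.66 for Col9a2, and -2.16 for Col6a1, -1.53 for Col28a1 and -0.90 for Col4a2. Col28a1 had entered through the retro-orbital tumors alone and so had to differ. Between meninges and cheek tumors again 0 passed, where 0.0475% of all genes did. The smallest adjusted p in limma was 0.078, that of Col3a1 (-1.77 ± 0.29). It passed without cheek tumor 1, where only cheek tumors 2 and 3 were left for that site (adjusted p = 0.0296 in limma). Unadjusted p was under 0.05 for 6 of the 38 (15.8%, against 17% of all genes), namely Col3a1, Col1a2 (-0.99), Col4a6 (-1.74), Col6a1 (-2.51) and Col17a1 (-1.91), and Col6a6 in the other direction (1.75). With that block 17 of the 38 genes passed (2 higher and 15 lower in the meninges), beside 4243 of all genes.

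The medians over the 38 genes were 0.25 for cheek minus retro-orbital, 0.05 for meninges minus retro-orbital and -0.30 for meninges minus cheek, where all genes had -0.02, 0.13 and 0.16. For the 10 fibrillar genes tested the same medians were 0.55, 0.30 and -0.19, with 7, 8 and 3 of them above 0. For the 5 type IV genes they were -0.40, -0.26 and -0.58, and for the 5 type VI genes -0.08, -1.28 and -0.59. The 3 comparisons share tumors and are not independent of each other.

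**Figure D4:**
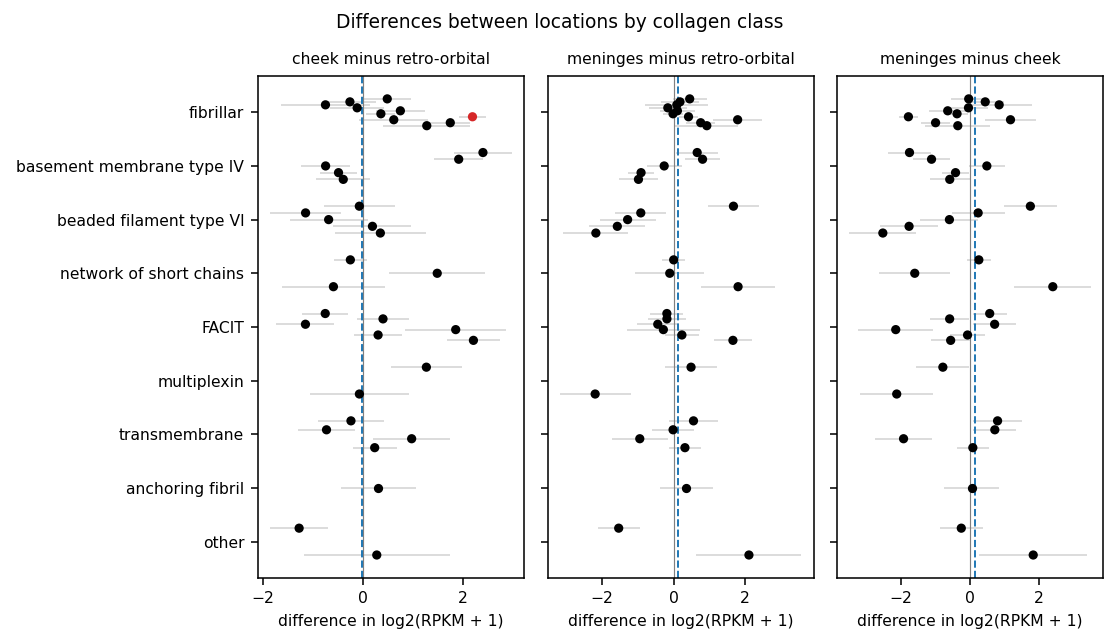
Difference in log2(RPKM + 1) between 2 sites for each of the 38 collagen genes tested, by class, with its standard error in grey. Red marks the gene past an adjusted p of 0.05, Col3a1 in cheek minus retro-orbital (2.19), and the dashed line is the median of all 14745 genes.

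Chains that assemble into 1 molecule were then set against each other. Pearson's r and Spearman's rho of log2(RPKM + 1) over the 12 tumors were tested by permutation (two-sided, 100000 resamples) and adjusted over the 8 pairs in which both chains were expressed widely enough. In type VI, Col6a1 and Col6a2 moved together (r = 0.986, adjusted permutation p = 8e-05, the smallest these permutations can give; rho = 0.972). The pair was as close without the 2 tumors farthest from the median of Col6a1 (r = 0.971). In type IV, Col4a1 and Col4a2 had r = 0.948 (adjusted permutation p = 0.00016, rho = 0.881) and Col4a5 and Col4a6 r = 0.905 (0.00027, rho = 0.895), and without the 2 farthest tumors r was 0.914 and 0.877. With 1 tumor per identifier first part r was 0.978, 0.911 and 0.904 for these 3 pairs. These 3 pairs are also neighbours in the genome, while the chains of the other tested pairs lie on different chromosomes. A shared molecule and a shared locus therefore cannot be told apart here. Col6a1 and Col6a3 had r = 0.689 (adjusted permutation p = 0.013, rho = 0.664), which no longer passed without the 2 farthest tumors, the vestibular tumor and meninges tumor 1 (r = 0.602, permutation p = 0.060). The call, though not the size of r, rests on those samples, and it was also lost without retro-orbital tumor 2 alone (r = 0.630).

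The fibrillar pairs did not pass. Col1a1 and Col1a2, which combine in type I collagen, had r = 0.623 (adjusted permutation p = 0.052, rho = 0.566). That pair passed after quantile normalization (r = 0.678) and without retro-orbital tumor 1 (0.655) or the vestibular tumor (0.729). For Col5a1 and Col5a2 r was -0.16, for Col11a1 and Col11a2 0.0093, and for Col8a1 and Col8a2 of the short-chain class 0.0758 (adjusted permutation p from 0.82 to 0.98 for these 3). Over all 703 pairs of the 38 genes the median r was 0.0900, with 5th and 95th percentiles of -0.50 and 0.684. Of the neighbouring genes that do not share a molecule, Col3a1 and Col5a2 had r = 0.596 (adjusted permutation p = 0.055) and rho = 0.650 (0.032), in a family of 5 neighbour pairs chosen after the data were seen, and r was 0.527 without the 2 farthest tumors. Col6a5 and Col6a6, the other such pair tested, did not pass (r = 0.254, adjusted permutation p = 0.43, and rho = 0.490, 0.11). Its r was 0.806 without the 2 farthest tumors, meninges 3 and meninges 1.

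**Figure D5:**
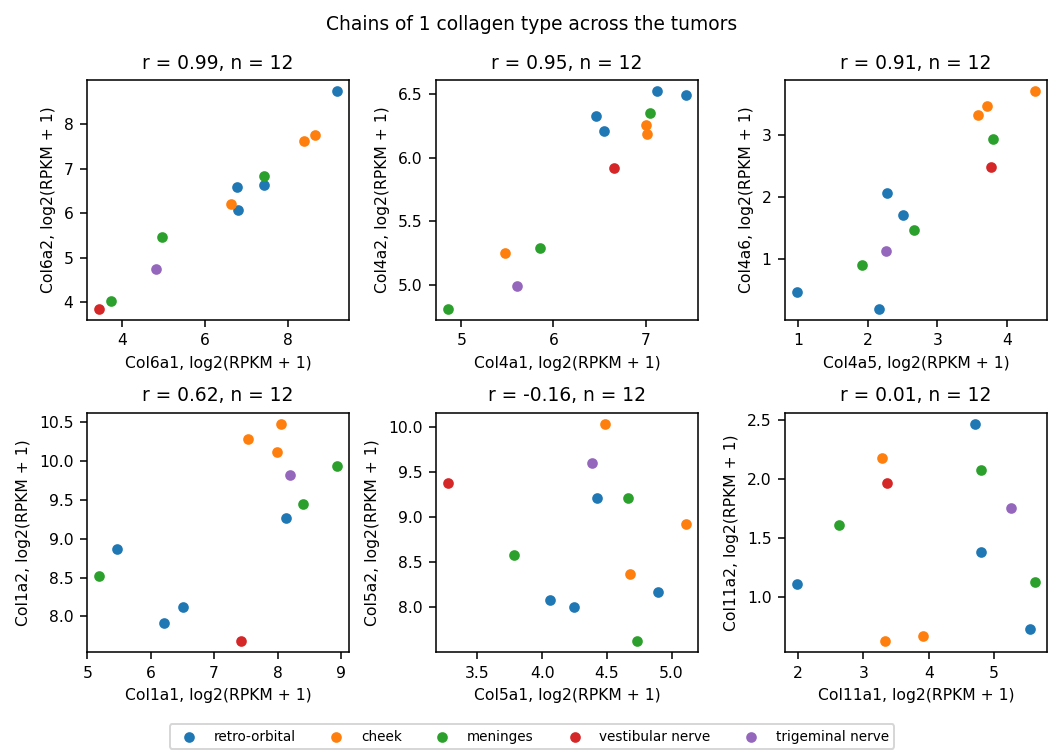
Log2(RPKM + 1) of 2 chains of 1 collagen type against each other, 1 point per tumor (n = 12), colored by site. The type VI pair and both type IV pairs lie near a line (r from 0.905 to 0.986), and the type V and XI pairs do not (r = -0.16 and 0.0093).

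Within a tumor the chains of 1 molecule were not at equal levels. Col1a1 was below Col1a2 in all 12 tumors, with a ratio of 0.0932 (retro-orbital 1) to 0.830 (vestibular) and a median of 0.313. Col5a1 was far below Col5a2 in all 12 (ratio 0.0130 to 0.130), and Col11a2 far below Col11a1 (Col11a1 over Col11a2 2.48 to 70.7). The type IV chains were nearer to each other, with Col4a1 over Col4a2 at 1.03 to 1.94. Col6a1 was above Col6a3 in all 12 tumors (ratio 1.24 to 32.5) and above Col6a2 in 9. Of all 11 partner pairs, the chain with the lower level by the median ratio had the higher GC content in its longest annotated transcript in 6 pairs and the lower GC content in 5. Among the former were Col5a1 (58.0% against 49.7% for Col5a2), Col11a2 (62.9% against 48.0% for Col11a1) and Col8a2 (59.1% against 46.8% for Col8a1). Among the latter were Col6a3 (54.5% against 56.7% for Col6a1) and Col6a2 (55.15% against 56.66% for Col6a1). The rest of the latter were pairs left out of the correlation tests: Col4a3 (50.4% against 51.1% for Col4a4) and Col9a1 (52.2% against 62.7% for Col9a2 and 59.2% for Col9a3). The part of GC content, and of the transcript length behind an RPKM, was not tested.

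Making a secreted collagen needs enzymes and chaperones of the endoplasmic reticulum and proteases that trim the ends, and cells read collagen through integrins and discoidin domain receptors. Of 28 such biosynthesis genes 25 were tested and of 10 receptor genes 9. In the 4 tests 0 of either list passed in limma at an adjusted p of 0.05. Without cheek tumor 1, Adamts3, a protease of procollagen, passed in 3 of the tests (adjusted p from 0.0182 to 0.0346 in limma). That fit leaves only cheek tumors 2 and 3 for the site, which share the first part of their identifier. Adamts3 was at 37.0 and 35.0 RPKM in them and at 0.612 RPKM in cheek tumor 1. At an unadjusted 0.05 there were 0, 0, 1 and 3 biosynthesis genes (0%, 0%, 4% and 12%) and 1, 2, 1 and 1 receptor genes (11.1%, 22.2%, 11.1% and 11.1%) in the F test, cheek minus retro-orbital, meninges minus retro-orbital and meninges minus cheek, against 14.3%, 12%, 9.14% and 17% of all genes. With the first part of the identifier as a block, 4 biosynthesis and 1 receptor genes passed the adjusted threshold in the F test, and 10 and 2 did between meninges and cheek. Under that block 2802 of all 14745 genes passed the F test and 4243 passed between meninges and cheek. The 3 genes of these lists with the highest means were P4hb, a subunit of prolyl hydroxylase (334 to 580 RPKM), Serpinh1, the collagen chaperone HSP47 (82.9 to 428 RPKM), and Ppib, a prolyl isomerase (172 to 357 RPKM). Serpinh1 was at 301, 82.9, 124 and 306 RPKM in the retro-orbital, 199, 296 and 251 RPKM in the cheek, and 207, 428 and 281 RPKM in the meninges tumors, with 385 and 177 RPKM in the vestibular and trigeminal tumors. The cheek tumors, highest for Col3a1, were within the range of the others for Serpinh1. The 2 receptor genes at an unadjusted p under 0.05 between cheek and retro-orbital tumors went in opposite directions. Ddr2, a collagen receptor of fibroblasts, had a difference of 1.09 and Lair1 a difference of -0.83 (adjusted p = 0.325 and 0.392 in limma).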

How the data were processed

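RNA of 12 tumors had been depleted of ribosomal RNA, made into stranded libraries and sequenced as paired ends in a single pool. The authors aligned reads to mm10 with STAR, kept unique reads and used HTSeq to count the fragments of each RefSeq gene. They deposited 1 RPKM value per gene and tumor, and which transcript length entered is not given in the sources used here. The submitters' processing notes also name bcl2fastq 2.17, edgeR and limma, without saying for which step.

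Tumors were grouped by the location in the labels. Replicate numbers follow accession order. Fragment totals were recovered as the whole numbers under which low RPKM values are whole fragments of genes with a single transcript length in GENCODE M21 (GRCm38, the build of mm10). The length behind each of the 44 genes is the smallest that makes its 12 values whole within 0.01 of a fragment, and for 8 genes it is an annotated transcript length. Intervals and fragments cover counting error only.

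limma 3.58.1 (R 4.3.3) with trended, robust prior variance was fitted to log2(RPKM + 1), a scale that understates changes of genes with low values, for genes that reached 1 RPKM in 3 or more of 10 tumors. The vestibular and trigeminal tumors, 1 each, entered no location test. Benjamini-Hochberg adjustment ran over all genes tested, at 0.05. Other steps used Python 3.11.15, numpy 2.4.6, scipy 1.17.1 and pandas 2.3.3. Scripts were tested on simulated data.

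The genes, classes, partner pairs and lists were chosen with earlier results of these data known. Values are given tumor by tumor for the 2 genes with the highest mean in each class, the 6 with the smallest F p, the 4 with the largest SD, and any past the threshold, 20 genes in all, and by range for the others. Sets of genes were not tested. The gene column held 27 entries that read as dates, as spreadsheets write some symbols. They stayed in the fits and are not named.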

Additional observations from a re-analysis of the deposited data

Results flagged for a closer look

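On the RPKM scale, among the 4 retro-orbital tumors, 13 of 44 collagen genes had 1 tumor so far from the others that its gap to the nearest, divided by the range of the 4, exceeded the 95% critical value of Dixon's test. Chance gives this in about 1 in 20 such groups where values are normally distributed, which RPKM values need not be. The share over all genes was not computed, so 13 of 44 is not a result about collagen genes. On log2(RPKM + 1), tried after the data were seen, 6 genes exceeded it, all among the 13 (Col5a2, Col7a1, Col15a1, Col17a1, Col18a1 and Col25a1), and the ratios of Col6a1, Col6a2 and Col6a3 were 0.736, 0.795 and 0.688, below it. The genes are not independent of each other, and the groups of 3 tumors were not screened.

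Retro-orbital tumor 2 was the highest for 6 of them. The ratio of gap to range was 0.871 for Col6a1, 0.914 for Col6a2 and 0.907 for Col6a3, all chains of type VI, 0.981 for Col15a1 (101 RPKM against 13.2 to 14.9), 0.908 for Col5a3 (17.1 RPKM against 2.72 to 4.04) and 0.882 for Col4a3 (4.05 RPKM against at most 0.535).

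Retro-orbital tumor 3 was the highest for 5. They were Col7a1 (0.965), Col9a1 (0.843), Col9a3 (0.879), Col17a1 (0.950) and Col25a1 (0.971, with 5.76 RPKM against at most 0.271). It was the lowest for Col18a1 (0.904, with 19.7 RPKM against 36.6 to 38.4). This library also had the largest recovered total. Retro-orbital tumor 1 was the highest for Col5a2 (0.909, with 591 RPKM against 255 to 286).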

How the results depend on the processing

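The identifier first part as a block used a correlation of 0.93 estimated from 2 pairs of tumors. It called 12 collagen genes, 4 biosynthesis genes, 1 receptor gene and 2802 of all genes in the F test, 0 collagen genes and 2 of all genes between cheek and retro-orbital, and 17 collagen genes (2 higher, 15 lower in the meninges), 10 biosynthesis genes, 2 receptor genes and 4243 of all genes between meninges and cheek, where Col26a1 changed sign and was called (-2.90). The cause was not tested. No paired analysis by replicate number was possible because those numbers follow accession order, so the shared first part of the identifier served as the block.

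For Col3a1, the 1 collagen gene called between cheek and retro-orbital, the adjusted p was 0.0413 with a pseudocount of 0.1, 0.0445 with a filter of 5 RPKM, 0.0821 without a filter, 0.0589 after quantile normalization and 0.0590 without trend and robust prior, so that the last 3, like 1 tumor per first part, left 0 calls. Without trend and robust prior the F test called 1 collagen gene.

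Counts over all genes in the F test, cheek minus retro-orbital, meninges minus retro-orbital and meninges minus cheek were 6, 4, 3 and 7. They were 10, 2, 7 and 18 without a filter, 3, 3, 1 and 1 with 5 RPKM, 19, 3, 6 and 22 without trend and robust prior, and 0 in each in limma with 1 tumor per first part (785, 849, 537 and 1066 at an unadjusted p under 0.05). Meninges minus cheek had 2 with a pseudocount of 0.1 and 13 after quantile normalization. With 1 tumor left out they ranged from 0 to 198, 0 to 147, 0 to 41 and 0 to 527, with the highest without cheek tumor 1, except for the third without retro-orbital tumor 3. The fit without cheek tumor 1 leaves only cheek tumors 2 and 3 for the site, the most alike of all pairs. Collagen calls ranged from 0 to 1 in all but meninges minus retro-orbital (0), and biosynthesis calls likewise, the 1 being Adamts3 without cheek tumor 1.

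The mean log2 ratio of fibrillar to type IV sums was 3.71, was 3.58 to 3.89 with 1 tumor left out, and was 1.49 from class medians. Without the highest gene of each class the type IV sum was 76.2 RPKM and the collagen share 0.432% of all RPKM. Correlations near 0 changed sign: Col11a1 with Col11a2 was -0.12 with 1 tumor per first part and from -0.112 to 0.178 with 1 tumor left out, negative without retro-orbital 3 (-0.0802), retro-orbital 4 (-0.112), cheek 2 (-0.011), cheek 3 (-0.0879), meninges 3 (-0.049) or trigeminal (-0.035), Col8a1 with Col8a2 from -0.067 to 0.213, and Col5a1 with Col5a2 from -0.24 to 0.0274. Chain partner pairs called ranged from 3 to 5, and Col6a1 with Col6a3 was lost without retro-orbital tumor 2 (r = 0.630) or the vestibular tumor (r = 0.580).

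With 3 or 4 tumors per site, differences within the spread between tumors were not detectable. Genes near 1 RPKM rested on the fewest fragments where the recovered total was small. In cheek tumor 3, Col10a1 at 0.847 RPKM had 35 fragments and Col23a1 at 0.989 RPKM had 74.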
